A study of Rattus norvegicus with 12 samples.

Results

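The question here was whether the left atrium and the left ventricle of the rat heart respond differently to a volume load, and for which genes. The quantity described is a difference of differences on the log2 scale: the shunt minus sham change in the atrium, minus the same change in the ventricle. A value above 0 means that the gene's level moved more upward, or less downward, in the atrium. The contrast used all 12 arrays of the series, and all 12 belong to it. It was computed for 18625 probe sets, which represent 10606 genes with 1 symbol. The groups were left atrial appendage after a sham operation, left atrial appendage after an aorto-caval shunt, left ventricular free wall after a sham operation and left ventricular free wall after a shunt, with 3 arrays each. All came from male Sprague-Dawley rats of 225 to 275 g, 28 days after the operation, with no stated age and no further genetic or drug treatment. Each array held RNA of a pool of 2 tissues, so differences between the animals within a pool cannot be seen, and the labels do not say whether an atrial and a ventricular pool shared animals. The tissue is whole muscle, in which fewer cells of a type and less RNA per cell cannot be told apart.

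As background, an aorto-caval shunt is an opening between the abdominal aorta and the vena cava, through which arterial blood returns directly to the veins and both sides of the heart receive more volume. The atrium is a thin-walled, low-pressure chamber whose myocytes secrete atrial natriuretic peptide when stretched and use their own light chains, ion channels and transcription factors. The ventricle is thick-walled, uses another set of these proteins, and re-expresses fetal genes such as atrial natriuretic peptide, slow myosin and skeletal actin under load. The same load can therefore meet a gene that is active in one chamber and silent in the other.

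The tissue labels were borne out by defining markers. The atrial light chains Myl7 and Myl4 and sarcolipin (Sln) had group means of 13.05 to 13.80 in the atrium and of 4.50 to 7.21 in the ventricle, on the log2 scale. The ventricular light chains Myl2 and Myl3 and the ventricular transcription factor Irx4 had group means of 7.53 to 13.68 in the ventricle and of 3.07 to 8.69 in the atrium. Myl7 spread over 5.91 to 8.55 on the ventricular arrays, with its highest value on ventricular shunt 2. Atrial shunt 3 deviated most from its group mean, with a root mean square of 0.200 against 0.0913 to 0.163 on the other 11 arrays. It also had the largest gap between the 3' and 5' probe sets of hexokinase, a sign of RNA integrity and labelling, with 1.44 against 0.80 to 1.23 elsewhere.

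No probe set passed the test of the chamber difference. In limma's fit of the 4 groups, 0 of 18625 probe sets (background: 0% called) had a Benjamini-Hochberg adjusted p under 0.05, and the smallest adjusted p was 0.0854. At an unadjusted p under 0.05 there were 1229 probe sets (6.6%), 552 above 0 (2.96%) and 677 below 0 (3.63%). By gene these were 720 of 10606 (6.79%), 316 above 0 (2.98%) and 404 below 0 (3.81%). With no gene past the threshold, none can be called as responding in the atrium alone, in the ventricle alone or in opposite directions, and everything below gives estimates with their intervals. A p that misses the threshold does not show that the chambers act alike: the 95% interval of a gene's difference had a median half-width of 0.28. In simulated data with the same spread, the test recovered 24% of 50 probe sets that differed by 0.5 and 88% of 50 that differed by 1. The simulation changed 50 probe sets at each size of 0.5, 1, 1.5 and 2. The Benjamini-Hochberg cutoff eases as more probe sets change, so these shares need not hold for the present data. Here 27 genes had a difference estimated at over 1 in size, and 0 passed. The count depended on 1 array. Without atrial shunt 3 the same test called 19 probe sets, 12 above 0 and 7 below 0, and with arrays weighted by their quality it called 11, while leaving out any other single array gave 0 or 1.

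Across the 10606 genes the atrial estimates spread more widely than the ventricular ones, with an SD over genes of 0.19 against 0.16 and median standard errors (SE) of 0.090 in each chamber. Estimates larger than 1 in size were seen for 33 genes in the atrium, 9 in the ventricle and 27 in the difference. Among the 720 genes at an unadjusted p under 0.05 the atrial estimate was the larger in size for 429 and the ventricular one for 291, and the signs were opposite for 539 (74.9%), against 35.6% of all genes. This last share follows in part from the contrast itself, which is large where the signs differ.

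**Figure D1:**
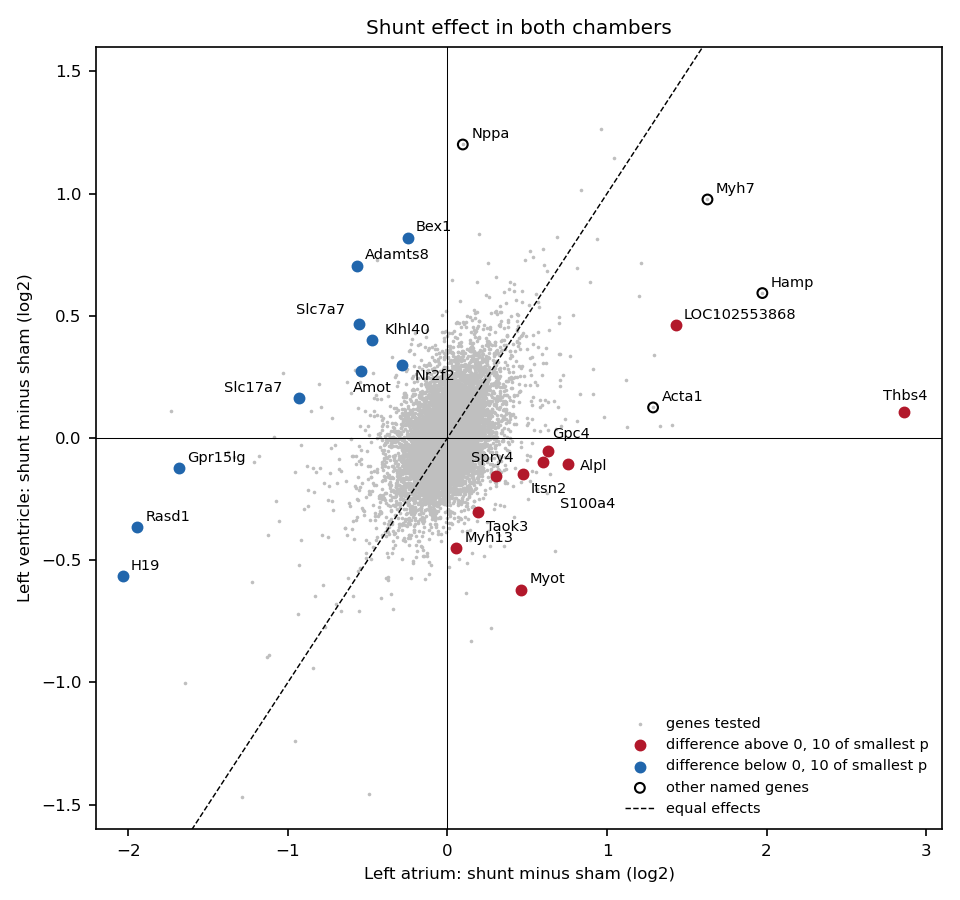
Each point is a gene, with its shunt minus sham estimate in the left atrium on the x axis and in the left ventricle on the y axis (log2). The dashed line marks equal estimates; the 10 genes of smallest p on each side of 0 are coloured, and 15 of these 20 lie in a quadrant of opposite signs.

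Taken chamber by chamber, the shunt changed 148 genes in the atrium at an adjusted p under 0.05 (1.4% of genes tested), 62 higher (0.585%) and 86 lower (0.811%), and 12 in the ventricle (0.113%), 6 higher (0.0566%) and 6 lower (0.0566%). Both chambers were called for 5 genes. Of the 148 atrial genes, 124 had a ventricular estimate of the same sign and 24 of the opposite sign, beside opposite signs in 35.6% of all genes. An unadjusted p under 0.05 in the ventricle was reached by 66. The share of all genes at that level in the ventricle is not given here, so the 66 are a description. The 62 that rose in the atrium had a median estimate of 0.54 there and of 0.18 in the ventricle. The 86 that fell had medians of -0.55 and -0.19. The 148 were chosen on atrial arrays that also enter the difference, so their larger atrial estimates are a description and no test. A call in one chamber only is no evidence of a difference between chambers. Of these 148 genes 0 passed the test of the difference, and 96 had an unadjusted p under 0.05, against 6.79% of all genes. Leaving out each array in turn kept the atrial call of 33 genes in all 12 fits and no ventricular call in all 12.

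The estimates below 0 were led by genes that fell in the atrium. Gpr15lg, a secreted ligand of the receptor GPR15, had the smallest p of all genes. Its log2 values were 6.93, 6.88 and 7.0 in atrial sham, 5.32, 5.51 and 4.94 in atrial shunt, 3.85, 3.56 and 3.73 in ventricular sham and 3.80, 3.55 and 3.42 in ventricular shunt. The atrial groups did not overlap, and the ventricular groups did. Such a gap is common: sham and shunt arrays did not overlap for 2312 genes in the atrium (21.8% of genes tested). In the ventricle this held for 2274 (21.4%). Arrays lying apart in 1 chamber, here and below, are therefore a description of the values. The atrial fall was 1.68 on the log2 scale, written here as an estimate of -1.68 ± 0.14 (SE, n = 3 per group, limma adjusted p = 0.000483). The ventricular estimate was -0.12 ± 0.14, and the difference was -1.56 (95% interval -1.99 to -1.13, adjusted p = 0.0854). Leaving out arrays moved the adjusted p of the difference between 0.00993 (without atrial shunt 3) and 0.322.

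Rasd1, a Ras-related protein induced by dexamethasone, stood at 7.15, 7.18 and 7.38 in atrial sham and at 5.19, 5.44 and 5.24 in atrial shunt. Its ventricular values were 4.47, 4.88 and 4.91 in sham and 4.42, 4.0 and 4.73 in shunt. The shunt arrays lay below the sham arrays in the atrium without overlap, and the ventricular ranges overlapped. The atrial estimate was -1.95 ± 0.17 (adjusted p = 0.000483), the ventricular one -0.37 ± 0.17 (adjusted p = 0.347), and the difference -1.58 (95% interval -2.11 to -1.05, adjusted p = 0.177; 0.0466 without ventricular shunt 2).

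H19, an imprinted non-coding RNA that is abundant in the fetus, stood at 9.31, 9.57 and 9.28 in atrial sham and at 6.91, 7.71 and 7.44 in atrial shunt. On the ventricular arrays it was 6.57, 6.68 and 6.57 in sham and 5.90, 6.42 and 5.80 in shunt. The shunt arrays were lower than the sham arrays in both chambers, and the estimates were -2.04 ± 0.19 in the atrium (adjusted p = 0.000805) and -0.57 ± 0.19 in the ventricle (adjusted p = 0.217). The difference was -1.47 (95% interval -2.07 to -0.87, adjusted p = 0.232).

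Slc17a7, the vesicular glutamate transporter VGLUT1, fell in the atrium from 5.41, 5.14 and 5.53 to 4.37, 4.39 and 4.52, with no overlap. In the ventricle it was 4.16, 4.08 and 3.71 in sham and 4.27, 3.94 and 4.22 in shunt, which lies close to the filter value of 4.01 below which probe sets were not tested. The difference was -1.09 (95% interval -1.51 to -0.68, adjusted p = 0.232), and a second, dimmer probe set gave -0.41. Scn4b, the beta-4 subunit of the cardiac sodium channel, behaved in the reverse way with respect to chamber level. It was low in the atrium (6.62, 6.45 and 6.52 in sham, 5.15, 5.07 and 5.83 in shunt) and high in the ventricle (9.65, 9.62 and 9.49 in sham, 9.57, 9.38 and 9.59 in shunt). It fell in the atrium by 1.18 (SE 0.16, adjusted p = 0.00563) against a ventricular estimate of -0.08, a difference of -1.10 (95% interval -1.6 to -0.61, adjusted p = 0.257, and 0.00355 without atrial shunt 3, whose 5.83 was the highest of the shunt arrays).

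The estimates above 0 were led in size by Thbs4, thrombospondin 4, a matricellular protein of loaded muscle and tendon. Its values were 5.16, 4.40 and 4.43 in atrial sham and 8.75, 7.15 and 6.69 in atrial shunt, and 5.15, 4.89 and 5.04 against 4.93, 5.30 and 5.17 in the ventricle. The atrial shunt arrays spread over 2 log2 units and all lay above sham, while the ventricular groups overlapped. The difference was 2.76 (95% interval 1.51 to 4.01, adjusted p = 0.257), the largest of any gene tested; without atrial shunt 3 it was 3.18 with an adjusted p of 0.046. All atrial sham and ventricular values of Thbs4 lay at 5.30 or below, so only the loaded atrium stood apart.

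Acta1, skeletal alpha-actin, is a fetal gene of the heart that is already high in this ventricle. It stood at 11.92, 11.51 and 11.90 in ventricular sham and at 11.58, 12.12 and 12 in ventricular shunt, overlapping, and at 9.24, 9.28 and 8.80 in atrial sham and 10.33, 10.25 and 10.60 in atrial shunt, apart. It rose in the atrium by 1.29 ± 0.17 (adjusted p = 0.00536), and the difference was 1.16 (95% interval 0.63 to 1.70, adjusted p = 0.257). LOC102553868, a locus with no assigned name, rose in the atrium from 6.25, 6.37 and 6.18 to 7.93, 7.81 and 7.34. Its ventricular values went from 9.76, 9.73 and 9.53 to 10.14, 10.12 and 10.15, also without overlap, and there the estimate was 0.46 ± 0.13 (adjusted p = 0.146). Its difference was 0.97 (95% interval 0.58 to 1.36, adjusted p = 0.232, and 0.00802 without atrial shunt 3).

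The other leading genes above 0 were smaller in size. S100a4, a calcium-binding protein of fibroblasts and leukocytes, rose in the atrium by 0.60 ± 0.10 (adjusted p = 0.0125) beside a ventricular estimate of -0.10, a difference of 0.70 (95% interval 0.41 to 0.99). Alpl, tissue-nonspecific alkaline phosphatase, rose by 0.75 ± 0.12 in the atrium (adjusted p = 0.0125) beside -0.11, a difference of 0.86 (0.50 to 1.23). Gpc4, the heparan sulfate proteoglycan glypican 4, rose by 0.63 ± 0.10 in the atrium (adjusted p = 0.0125) beside -0.05, a difference of 0.68 (0.38 to 0.99). Each of these atrial calls was lost when certain arrays were left out: S100a4 without atrial sham 2 or 3, Alpl without atrial shunt 1 or atrial sham 2 or 3, and Gpc4 without atrial shunt 1 or 2 or atrial sham 2 or 3 (adjusted p up to 0.0658, 0.0630 and 0.0643). Itsn2, an endocytic scaffold protein, gave 0.62 (0.35 to 0.89) on its brightest probe set, but -0.01 and -0.23 on the other probe sets, so no direction can be given for the gene.

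**Figure D2:**
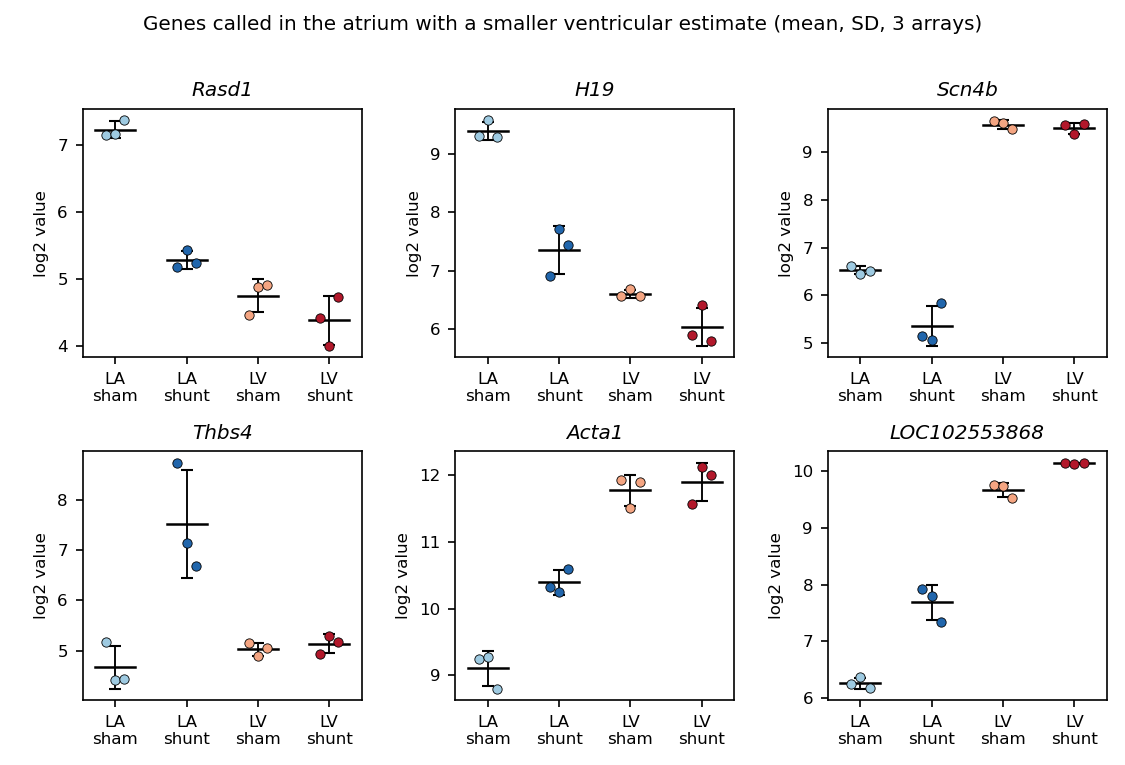
Log2 value (y axis) of 6 genes called in the atrium on each of the 12 arrays, by group (x axis; LA, left atrium; LV, left ventricle), with group mean and SD. In each panel the atrial shunt points lie apart from the atrial sham points, and the ventricular points overlap or shift less.

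The bases before the transcription start are shown for 4 of the genes described above, 2 with a difference below 0 and 2 above 0, so that their promoters can be set side by side. They are the 250 bases before the RefSeq start on build GRCr8, 5' to 3' on the strand of the gene. All 4 genes lie on the minus strand: Gpr15lg at chr16:12896135-12896384, Rasd1 at chr10:45267683-45267932, Thbs4 at chr2:25760346-25760595 and Acta1 at chr19:68784195-68784444. Capitals mark matches on either strand to TATAAA, the core of the TATA box, to TGTTCT, a half-site of the glucocorticoid response element, and to the CArG box bound by serum response factor.
Gpr15lg: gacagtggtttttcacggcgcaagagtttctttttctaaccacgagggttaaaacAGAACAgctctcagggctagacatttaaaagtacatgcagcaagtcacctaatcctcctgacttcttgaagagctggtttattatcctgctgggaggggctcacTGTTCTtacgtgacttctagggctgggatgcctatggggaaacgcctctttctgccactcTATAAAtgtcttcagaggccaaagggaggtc
Rasd1: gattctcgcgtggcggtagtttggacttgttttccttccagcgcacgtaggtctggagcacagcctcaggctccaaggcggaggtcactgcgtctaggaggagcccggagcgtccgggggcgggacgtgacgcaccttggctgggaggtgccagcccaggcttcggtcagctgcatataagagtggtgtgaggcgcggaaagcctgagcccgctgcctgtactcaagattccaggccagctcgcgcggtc
Thbs4: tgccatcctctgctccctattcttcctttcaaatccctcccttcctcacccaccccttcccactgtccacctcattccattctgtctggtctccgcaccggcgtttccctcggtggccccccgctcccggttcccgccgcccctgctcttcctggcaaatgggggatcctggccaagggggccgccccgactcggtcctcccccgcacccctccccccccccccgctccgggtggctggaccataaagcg
Acta1: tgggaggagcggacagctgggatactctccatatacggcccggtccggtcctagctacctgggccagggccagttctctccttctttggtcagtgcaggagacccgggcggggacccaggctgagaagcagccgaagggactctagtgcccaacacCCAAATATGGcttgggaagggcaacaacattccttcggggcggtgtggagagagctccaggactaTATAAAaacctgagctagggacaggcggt
The TATAAA match began 31 bases before the start in Gpr15lg and 29 bases before it in Acta1, and the CArG match of Acta1 began 94 bases before its start. Of all 33469 promoter windows of this length, 12.93% hold TATAAA, 17.52% hold TGTTCT and 1.5% hold the CArG box. A match describes letters in this window and nothing about binding.

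Ventricular calls were few, and most came with an atrial estimate of the same sign. Of the 12 ventricular genes, 10 had the same sign in the atrium and 2 the opposite sign. An unadjusted p under 0.05 in the atrium was reached by 10 of them. The share of all genes at that level in the atrium is not given here, so this count is a description. Bex1, a small brain-expressed X-linked protein, rose in the ventricle from 4.75, 4.49 and 4.42 to 5.42, 5.32 and 5.39, with no overlap (0.82 ± 0.13, adjusted p = 0.0487). In the atrium its values of 6.58, 6.93 and 6.85 in sham and 6.29, 6.54 and 6.79 in shunt overlapped, with an estimate of -0.25 ± 0.13, and the difference was -1.07 (95% interval -1.48 to -0.66, adjusted p = 0.232). Myh13, the extraocular myosin heavy chain, fell in the ventricle from 5.08, 5.03 and 5.15 to 4.65, 4.59 and 4.66 (-0.45 ± 0.07, adjusted p = 0.0487) and overlapped in the atrium, where the estimate was 0.06; the difference was 0.51 (0.29 to 0.72). These 2 ventricular calls were kept in only 2 of 12 fits without 1 array, namely without atrial shunt 1 or without atrial shunt 3, with an adjusted p of up to 0.186 for Bex1 and 0.151 for Myh13. Vnn1, the pantetheinase vanin 1, rose in the ventricle from 7.88, 7.93 and 7.66 to 8.43, 8.41 and 8.54 (0.64 ± 0.07, adjusted p = 0.0119). Its atrial values moved from 9.39, 9.38 and 9.36 to 9.54, 9.59 and 9.56, apart but by only 0.18, and the difference was -0.46 (-0.68 to -0.23, adjusted p = 0.312). Its ventricular call was lost without ventricular shunt 3, ventricular sham 1 or ventricular sham 3 (adjusted p up to 0.0804). Cacng6, a gamma subunit of voltage-gated calcium channels, fell in the ventricle by 0.70 (SE 0.09, adjusted p = 0.0269) beside an atrial estimate of -0.34, a difference of 0.36 (0.07 to 0.65). This call was lost without ventricular shunt 1 or 3, any 1 ventricular sham array or atrial sham 3 (adjusted p up to 0.122).

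The 5 genes called in both chambers had the same direction in each: Wfdc1, Tpd52l1 and Slc24a3 fell and Mcf2l and RT1-Da rose. They are named because they are the whole of that group. Slc24a3, a sodium, potassium and calcium exchanger, had estimates of -0.77 in the atrium and -0.77 in the ventricle and a difference of 0.01 with a 95% interval of -0.28 to 0.29. Wfdc1, a secreted protease inhibitor domain protein, had -0.96 and -1.24, a difference of 0.28 (-0.21 to 0.77). RT1-Da, an MHC class II alpha chain, had 0.62 and 0.68, a difference of -0.06 (-0.40 to 0.28). These 95% intervals give the precision of each estimate and set no bound on the difference. The genes were chosen on the same arrays.

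Opposite estimates, with each chamber at an unadjusted p under 0.05, were found for 32 genes (0.302% of genes tested), 12 with a higher atrium and lower ventricle (0.113%) and 20 with the reverse (0.189%). Estimates of the same sign under the same rule were found for 484 genes (4.56%). By arrays alone, sham and shunt did not overlap in either chamber and had opposite order for 63 genes (0.594%), and the same order for 680 (6.41%). The adjusted p of the difference ran from 0.129 to 0.528 over the 32 genes, and 3 of them were called in the atrium and 0 in the ventricle.

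Klhl40, a kelch protein that stabilises thin filament proteins of striated muscle, had the smallest p among them. Its atrial values were 7.30, 7.33 and 7.16 in sham and 6.87, 6.64 and 6.86 in shunt, and its ventricular values 6.11, 6.11 and 6.09 in sham and 6.4, 6.66 and 6.45 in shunt. Neither pair of groups overlapped, and the chambers moved towards each other. The atrium fell (-0.47 ± 0.09, adjusted p = 0.0248; lost without atrial shunt 1, atrial shunt 2 or 1 of the atrial sham arrays, adjusted p up to 0.117), the ventricular estimate was 0.40 ± 0.09 (adjusted p = 0.0844) and the difference was -0.87 (95% interval -1.14 to -0.61, adjusted p = 0.129). Without atrial shunt 3 its adjusted p was 0.0323.

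Adamts8, a secreted metalloproteinase, was much higher in the atrium (8.26, 8.54 and 8.56 in sham, 7.80, 7.78 and 8.08 in shunt) than in the ventricle (4.25, 4.09 and 3.82 in sham, 4.41, 5.04 and 4.83 in shunt). The groups were apart in both chambers, with estimates of -0.57 ± 0.16 and 0.71 ± 0.16 and a difference of -1.27 (95% interval -1.77 to -0.77, adjusted p = 0.232). Slc7a7, the light chain of a cationic amino acid transporter, had 5.84, 5.65 and 6.14 in atrial sham, 5.12, 5.38 and 5.47 in atrial shunt, 4.14, 4.28 and 4.17 in ventricular sham and 4.65, 4.58 and 4.77 in ventricular shunt. It too was apart in both chambers, with a difference of -1.02 (-1.40 to -0.65, adjusted p = 0.232). Amot, angiomotin, a membrane-associated partner of YAP, fell in the atrium (-0.54 ± 0.10, adjusted p = 0.0237; up to 0.112 without atrial shunt 1 or 2 or atrial sham 2 or 3) beside a ventricular estimate of 0.27 ± 0.10, a difference of -0.82 (-1.12 to -0.51). Its ventricular values, 4.08, 4.33 and 4.08 in sham and 4.33, 4.42 and 4.55 in shunt, only just parted. The ventricular sham values of Adamts8, Slc7a7 and Amot all lay close to the filter value, and the 3.82 of Adamts8 lay under it. This limits what their ventricular estimates can show.

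Myot, the Z-disc protein myotilin, ran the other way. It stood at 4.10, 3.78 and 4.08 in atrial sham and 4.39, 4.60 and 4.36 in atrial shunt, and at 4.67, 4.12 and 4.55 in ventricular sham and 3.86, 3.91 and 3.72 in ventricular shunt. The groups were apart in both chambers, but all 12 values lay within 1 log2 unit of the filter value. The estimates were 0.46 ± 0.14 and -0.62 ± 0.14, and the difference 1.08 (95% interval 0.66 to 1.51, adjusted p = 0.232). Taok3, a stress-activated kinase, had estimates of 0.19 and -0.30 and a difference of 0.49 (0.29 to 0.70), with 0.17 on a second probe set. Spry4, an inhibitor of growth factor receptor signalling, rose in the atrium by 0.30 (adjusted p = 0.0442, a call kept in only 1 of 12 fits, that without atrial shunt 3) beside -0.16, a difference of 0.46 (0.26 to 0.66).

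Nr2f2, the transcription factor COUP-TFII that maintains atrial identity, was higher in the atrium, at 8.60, 8.54 and 8.47 in sham and 8.21, 8.19 and 8.36 in shunt. Ventricular values were 6.0, 6.03 and 6.05 in sham and 6.18, 6.44 and 6.35 in shunt, apart in both chambers. The difference was -0.58 (95% interval -0.82 to -0.34, adjusted p = 0.245), and a second probe set gave -0.14. Irx2, an Iroquois factor of the ventricle, had opposite estimates with the other sign, 0.36 and -0.28, a difference of 0.63 (0.26 to 1.01); its atrial values of 3.56 to 3.74 in sham and 3.71 to 4.24 in shunt overlapped. The atrial sham values of Irx2, and its 3.71 on atrial shunt 3, lay under the filter value, which limits what the atrial estimate can show.

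**Figure D3:**
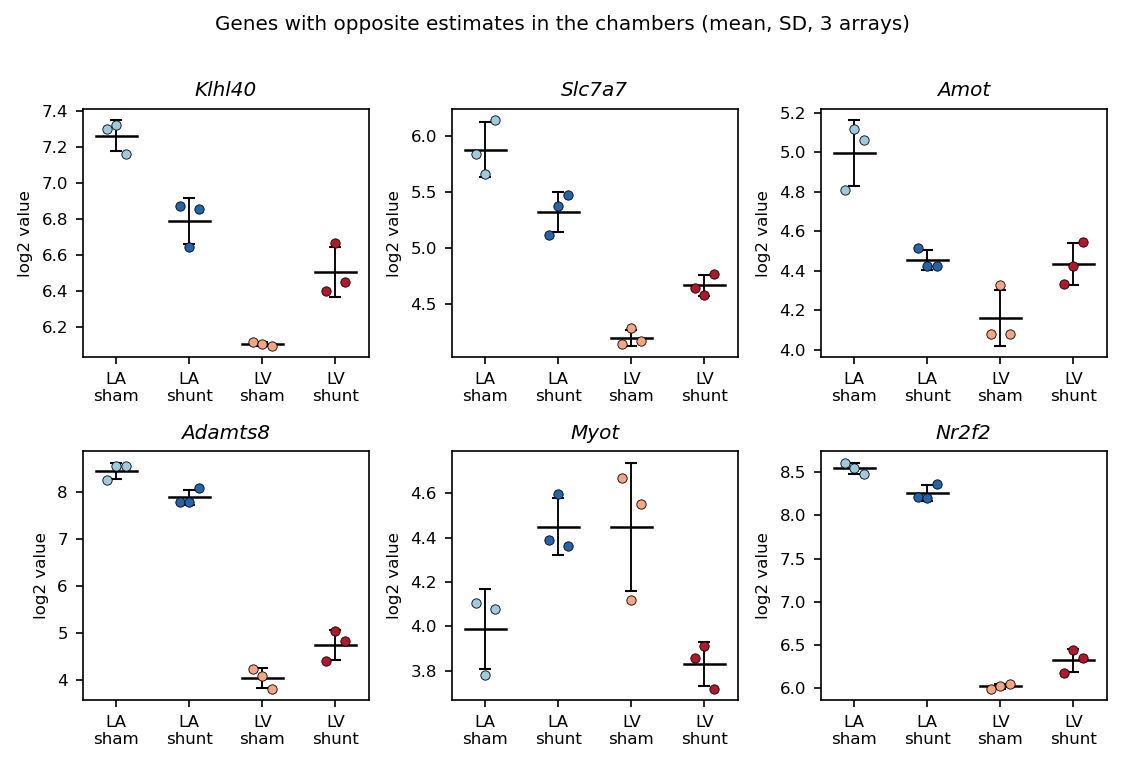
Log2 value (y axis) of 6 genes with opposite estimates on each of the 12 arrays, by group (x axis), with group mean and SD. Sham and shunt points are apart in both chambers of every panel, and in 5 of 6 panels the atrium is lower and the ventricle higher after the shunt, with Myot the reverse.

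The chamber gap itself gives another view of these genes, since the difference described here equals the atrial minus ventricular gap in shunt minus that in sham. All 10 leading genes below 0 were higher in the atrium than in the ventricle in sham, and in all 10 the gap was smaller in shunt. For Gpr15lg it went from 3.22 to 1.66, for Rasd1 from 2.48 to 0.90, for Klhl40 from 1.16 to 0.29 and for Slc17a7 from 1.38 to 0.28. Of the 10 above 0 the gap was smaller in shunt in 5. The gap of LOC102553868 went from -3.41 to -2.44, whereas Thbs4 went from -0.36 to 2.40 and opened a gap. Over all genes tested the gap was smaller in shunt for 55%. Both gaps enter the difference that ranked these genes, so the counts are a description.

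Levels near background in one chamber limit what a difference can mean, since RMA values of unexpressed genes do not fall further. RMA gives no detection call, so the filter value of 4.01, the 40th percentile of probe set means, stands in for background. A gene was counted where all 6 arrays of one chamber lay under it and a group mean of the other chamber lay above it. This held for 33 genes in the atrium alone (0.311%) and 47 in the ventricle alone (0.443%). Of these, 20 had a difference at an unadjusted p under 0.05, against 6.79% of all genes. They passed the filter on mean level through the chamber where they were higher, so these counts are a description. At the 30th percentile the counts were 2 and 10, at the 50th 195 and 182, and at the 60th 192 and 286. Of the genes counted at the 40th percentile, 6 had a called atrial change, all near background in the ventricle, and 0 had a called ventricular change. Over all genes tested, 1.4% had a called atrial change and 0.113% a called ventricular change. The 6 were Gpr15lg, Krt19, Bex4, LOC102554187, Ppp2r2b and Cntf, the last 3 named because they complete the group.

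Gpr15lg was the clearest of these. Its 6 ventricular values, 3.42 to 3.85, were all under 4.01, so no ventricular response can be read from them. Krt19, a keratin of epithelia and of the mesothelium that covers the heart, stood at 6.93, 6.68 and 6.68 in atrial sham and 6.33, 6.29 and 5.78 in atrial shunt, and at 3.21 to 3.64 on the ventricular arrays. It fell in the atrium (-0.63 ± 0.13, adjusted p = 0.0442, kept in 1 of 12 fits, that without atrial shunt 3), and its difference was -0.86 (95% interval -1.27 to -0.45). Bex4, a relative of Bex1, fell in the atrium from 6.0, 6.04 and 6.01 to 5.72, 5.40 and 5.27 (adjusted p = 0.0436, kept in 2 of 12 fits, those without atrial shunt 1 or ventricular sham 2) and lay between 2.64 and 2.98 in the ventricle, a difference of -0.60 (-0.95 to -0.24). Tceal5, a transcription elongation factor-like protein, had opposite estimates of -0.34 and 0.33, but its ventricular values of 2.97 to 3.40 were all under the filter value. Ctso, the protease cathepsin O, lay at 3.54 to 3.96 in the ventricle, and its difference of -0.38 (-0.61 to -0.15) came from a ventricular estimate of 0.32 within that range. For Tceal5 and Ctso the ventricular shift thus lies wholly among values that stand in for background.

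**Figure D4:**
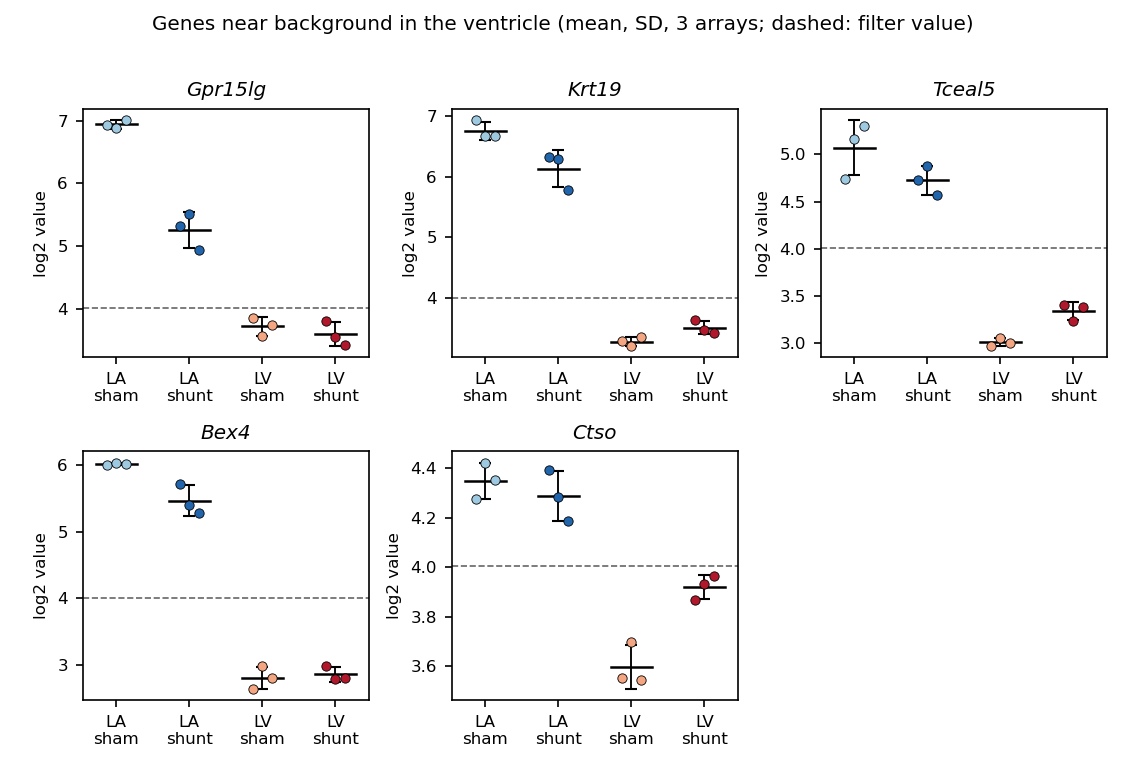
Log2 value (y axis) of the 5 genes of smallest p that were near background in the ventricle, on each of the 12 arrays by group (x axis), with group mean and SD. The dashed line is the filter value of 4.01: all ventricular points lie under it and all atrial points above it.

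Contractile proteins and chamber markers were taken next. Of 15 measured ventricular myocyte markers, 8 had a difference at an unadjusted p under 0.05, 6 above and 2 below 0, against 6.79% of all genes, and their median was 0.11 against -0.01 over all genes. These lists were put together with earlier results of these data known, and 0 members passed the adjusted threshold. Kcnip2, the accessory subunit KChIP2 of the transient outward potassium channel, rose in the atrium from 7.41, 6.46 and 7.07 to 8.26, 8.65 and 8.04, and stayed between 10.89 and 11.05 on all ventricular arrays. Its difference was 1.28 (95% interval 0.66 to 1.91, adjusted p = 0.295), with 1.12 on a second probe set. Myl3, the ventricular essential light chain, rose in the atrium from 7.88, 7.01 and 7.82 to 8.70, 9.03 and 8.35 (1.13 ± 0.21, adjusted p = 0.0256; up to 0.0889 without atrial shunt 1 or 2 or atrial sham 3). In the ventricle it lay between 13.26 and 13.37, near the top of the scale, and the difference was 1.08 (0.44 to 1.72, adjusted p = 0.46).

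Myh7, which encodes slow myosin, rose in the atrium from 7.31, 6.91 and 6.87 to 8.79, 8.89 and 8.30 (1.63 ± 0.18, adjusted p = 0.00228). In the ventricle it went from 10.84, 10.43 and 10.55 to 11.55, 11.82 and 11.39, also apart (0.98 ± 0.18, adjusted p = 0.0672), which left a difference of 0.65 (0.11 to 1.2, adjusted p = 0.665). Myl2, the ventricular regulatory light chain, had 4.90, 4.16 and 4.50 in atrial sham and 5.12, 5.67 and 4.91 in atrial shunt, against 13.61 to 13.70 in the ventricle. Not all ventricular markers shared this sign. Irx4 was 3.36, 3.22 and 3.58 in atrial sham and 2.95, 3.0 and 3.24 in atrial shunt, all under the filter value. Rpl3l, a striated muscle form of a ribosomal protein, had an atrial estimate of -0.60 ± 0.13 and a ventricular one of 0.00, a difference of -0.60 (-1.01 to -0.19). The mean level over the 15 markers was 6.75 to 6.97 on atrial sham, 7.04 to 7.29 on atrial shunt and 9.62 to 9.70 on all ventricular arrays. Their median deviation from the sham mean overlapped, at 0.04, -0.05 and -0.01 on atrial sham and 0.03, 0.13 and 0.05 on atrial shunt. The gap in mean level thus does not describe the middle marker of the list. Of 14 measured atrial myocyte markers, 3 had a difference at an unadjusted p under 0.05, 1 above and 2 below 0. This was 21.4%, against 6.79% of all genes. Their median was -0.04 (0.13 without ventricular shunt 2). Their mean level was 10.15 to 10.22 on atrial sham and 10.08 to 10.10 on atrial shunt. Their median deviation overlapped, at -0.01, -0.004 and 0.002 on atrial sham and -0.05, -0.02 and 0.03 on atrial shunt. The part of ventricular tissue in the atrial pools was not tested.

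Of 22 thick and thin filament genes, 5 had an unadjusted p under 0.05 (22.7%), all above 0, with a list median of 0.00. The share over all genes was 6.79%. Besides Acta1, Myl3, Myh7 and Myl2 this was Tpm2, beta-tropomyosin, with estimates of 0.50 and -0.07. The Tpm2 difference was 0.57, but 0.37 without atrial shunt 3, 0.72 without atrial shunt 1 and 0.26 on a second probe set. Of 23 Z-disc and stretch-sensing genes 3 did so, all above 0: Myot, Synpo2l and Synpo2. Synpo2l, a Z-disc protein that binds actin, rose in the atrium from 9.64, 9.75 and 9.65 to 10.10, 10.31 and 10.25 (0.54 ± 0.10, adjusted p = 0.023; up to 0.103 without atrial shunt 2 or 1 of the atrial sham arrays) and overlapped in the ventricle, a difference of 0.51 (0.21 to 0.81). The main cardiac myosin Myh6 differed by 0.04 (95% interval -0.14 to 0.21), and Atp2a2, the calcium pump SERCA2, by -0.05 (-0.22 to 0.11) on its brightest probe set. The other Atp2a2 probe sets gave 0.19, -0.32 and 0.00, so no direction can be given for that gene.

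Among channels, 4 of 13 sodium channel, pacemaker and connexin genes had an unadjusted p under 0.05, 1 above and 3 below 0. Their median was -0.05 (0.07 without atrial shunt 2). The counts here stand beside a share of 6.79% over all genes. Beside Scn4b these were Fgf12, an intracellular modulator of sodium channels (-0.51, with 0.36 and -0.15 on other probe sets), Gja4, a connexin of endothelium (0.46), and Fgf13, a relative of Fgf12 (-0.29), which is named because it completes the group. Of 17 potassium channel genes 4 did so, 2 on each side. Kcnj12, the inward rectifier Kir2.2, fell in the atrium from 5.45, 5.79 and 5.56 to 4.97, 4.91 and 4.52 (-0.80 ± 0.12, adjusted p = 0.0113; 0.0514 without atrial sham 2) and overlapped in the ventricle, a difference of -0.68 (-1.06 to -0.30). It thus went opposite to Kcnip2 within the atrium. In the calcium handling list 4 of 23 did so, with Trdn, triadin of the calcium release complex, at -0.54 on one probe set and between -0.18 and 0.11 on 3 others.

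The estimated differences of the 2 natriuretic peptides had opposite signs. Neither passed the threshold, and the peptides were not tested against each other. Nppa, atrial natriuretic peptide, lay at 14.11 to 14.18 in atrial sham and 14.22 to 14.29 in atrial shunt, where 14.29 is the top of its array. In the ventricle it was 10.11, 9.61 and 10.19 in sham and 10.48, 11.99 and 11.04 in shunt, apart in both chambers. The ventricular estimate was 1.2 ± 0.28 (adjusted p = 0.105) and the difference -1.10 (95% interval -1.98 to -0.23, adjusted p = 0.644). It was -0.70 without ventricular shunt 2 and -1.45 without ventricular shunt 1. How far an atrial change is measurable so close to the top of the scale was not tested. Ventricular shunt 2 had the highest ventricular value of Nppa and of Myl7, 8.55, whose sham values were 6.25, 7.74 and 7.23; the part of atrial tissue in this estimate was not tested. Nppb, B-type natriuretic peptide, had 12.32, 11.98 and 12.02 in atrial sham and 12.76, 12.88 and 12.78 in atrial shunt, and 11.14, 10.54 and 11.14 against 11.27, 11.61 and 11.35 in the ventricle. It was apart in both chambers in the same order, and its difference was 0.23 (-0.25 to 0.71; 0.13 and 0.43 without ventricular sham 3 and 2). Of the 8 measured genes of the system, Nppa was the only one at an unadjusted p under 0.05 (12.5%, against 6.79% of all genes).

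The insulin-like growth factor axis holds growth factors, their receptors and their binding proteins. Of 14 measured genes 4 had an unadjusted p under 0.05 (28.6%, against 6.79% of all genes), all below 0. The list median was -0.06 (0.05 without ventricular shunt 2). Igf2, the fetal growth factor imprinted beside H19, fell in the atrium from 7.81, 7.91 and 7.95 to 6.83, 7.01 and 7.21 (-0.87 ± 0.10, adjusted p = 0.00257). In the ventricle it had 7.46, 7.43 and 7.45 in sham and 7.15, 7.39 and 7.15 in shunt, apart by a small margin, with an estimate of -0.21 and a difference of -0.66 (-0.96 to -0.36, adjusted p = 0.257). Igfbp3, a binding protein of these factors, fell in the atrium (-1.23 ± 0.13, adjusted p = 0.00228) beside -0.59 in the ventricle, a difference of -0.64 (-1.05 to -0.22), with -0.49 on a second probe set. The fourth was Igf1, at -0.31, named because it completes the group.

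Immediate early genes are switched on within minutes of a stimulus. Of 23 such genes measured, 4 had an unadjusted p under 0.05 (17.4%, against 6.79% of all genes), 1 above and 3 below 0. Their median was -0.09 (0.02 without atrial sham 1). Nr4a3, an orphan nuclear receptor, fell in the atrium from 6.36, 5.51 and 5.48 to 4.52, 4.57 and 4.13 (-1.38 ± 0.20, adjusted p = 0.00859) and lay between 4.05 and 4.37 in the ventricle, a difference of -1.32 (-1.95 to -0.69, adjusted p = 0.285). The ventricular values of Nr4a3 lay just above the filter value, and whether a ventricular fall could be seen there was not tested. Atf3, a stress-induced transcription factor, had an atrial estimate of -1.73 ± 0.43, which missed the threshold (adjusted p = 0.08). Its atrial sham values spread widely, at 6.84, 5.24 and 4.40, above 3.75 to 3.79 in shunt. These shunt values lay under the filter value, so the full size of the atrial fall cannot be read from them. Of 19 glucocorticoid-responsive genes 3 had an unadjusted p under 0.05, Rasd1 and Pdk4 below 0 and Mt2A above. Pdk4, pyruvate dehydrogenase kinase 4, fell in the atrium from 8.54, 8.54 and 8.56 to 7.68, 7.51 and 7.69 and had ventricular values of 9.35, 9.49 and 9.39 against 9.04, 8.86 and 9.08, apart in both. Its difference was -0.50 (-0.74 to -0.27) but -0.04 on a second probe set.

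Of the matrix, 3 of 17 matricellular genes had an unadjusted p under 0.05 (17.6%, against 6.79% of all genes), all above 0: Thbs4, Ccn2 and Cthrc1. Ccn2, connective tissue growth factor, rose in the atrium from 9.86, 9.62 and 9.44 to 10.76, 10.58 and 10.52 (adjusted p = 0.0436, lost without atrial shunt 1 or 2, 1 of the atrial sham arrays, ventricular shunt 3 or ventricular sham 1) and overlapped in the ventricle, a difference of 0.90 (0.26 to 1.53). Ltbp2, a latent TGF-beta binding protein of elastic fibres, rose in the atrium from 5.68, 5.76 and 5.72 to 7.36, 7.21 and 6.48 (1.30 ± 0.18, adjusted p = 0.00667). It was 5.94, 5.64 and 5.96 against 6.12, 6.31 and 6.13 in the ventricle, and the difference was 0.96 (0.40 to 1.52, adjusted p = 0.46, and 0.00993 without atrial shunt 3). Fibrillar collagen gave no such estimate: Col1a1 differed by -0.05 (-0.45 to 0.36) and Col3a1 by -0.01 (-0.25 to 0.23). Of 17 collagen chains 2 and of 21 proteoglycan and turnover genes 0 had an unadjusted p under 0.05. Without atrial shunt 3 the collagen median went from -0.03 to 0.08. The proteoglycan and turnover median went from -0.01 to 0.19 in the same fit. Hamp, the iron hormone hepcidin, rose in the atrium from 9.45, 8.89 and 9.07 to 11.23, 11.28 and 10.81 (1.97 ± 0.36, adjusted p = 0.0249; up to 0.117 without atrial shunt 1 or 2 or atrial sham 2 or 3). It overlapped in the ventricle, at 5.03, 5.97 and 5.66 against 5.30, 7.03 and 6.10, and the difference was 1.38 (0.26 to 2.5).

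Energy metabolism was read from 3 lists, whose counts stand beside a share of 6.79% over all genes. Of 20 respiratory chain genes 0 had an unadjusted p under 0.05, with a median of 0.03 and a range of -0.06 to 0.17. Of 31 fatty acid oxidation genes 5 did so, 1 above and 4 below 0, and the single one above was Ucp2, an uncoupling protein, with a ventricular estimate of -0.56 ± 0.10 beside -0.12 in the atrium. Of 22 genes of glycolysis 1 did so.

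Markers of other cell types gave the following counts at an unadjusted p under 0.05, beside a share of 6.79% over all genes. The shares of fibroblast (10%), endothelial (5%) and macrophage and myeloid markers (4.35%) lay near it. Nerve and Schwann cell markers had 2 of 10, both above 0, and the highest median of any list, 0.24. Npy, a peptide of sympathetic nerves, had 6.75, 6.76 and 6.82 in atrial sham and 7.21, 7.13 and 7.22 in atrial shunt, and overlapped in the ventricle, a difference of 0.61 (0.31 to 0.90, adjusted p = 0.295). The mean level of the list was 5.85 to 5.88 on atrial sham, 6.12 to 6.22 on atrial shunt, 5.46 to 5.52 on ventricular sham and 5.52 to 5.58 on ventricular shunt. Smooth muscle and pericyte markers had 3 of 15, all above 0, with a median of 0.16 (0.07 without atrial shunt 1). Mesothelial and epicardial markers had 3 of 16, all below 0, with a median of -0.14; besides Krt19 these were Slpi, an antiprotease (-0.62), and Lrrn4 (-0.63, with -0.16 and -0.21 on other probe sets). The median deviation of that list from the sham mean was 0.05 and 0.16 on atrial shunt 1 and 2 and -0.26 on atrial shunt 3, and 0.13, 0.08 and 0.10 on the ventricular shunt arrays. Without atrial shunt 3 the list median was -0.07. Atrial shunt 3 was thus the single atrial shunt array on which the median of these markers lay below the sham mean. Krt19 itself lay below atrial sham on every atrial shunt array. Skeletal muscle markers had 3 of 10, all above 0, with a median of -0.01 (0.06 without ventricular shunt 3). Fibroblast markers had 2 of 20, endothelial markers 1 of 20, macrophage and myeloid markers 1 of 23, lymphocyte markers 1 of 6, and MHC class II, adipocyte and erythroid and platelet markers 0 of 15, 0 of 8 and 0 of 8. The part of cell composition in the differences of single genes was not tested.

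**Figure D5:**
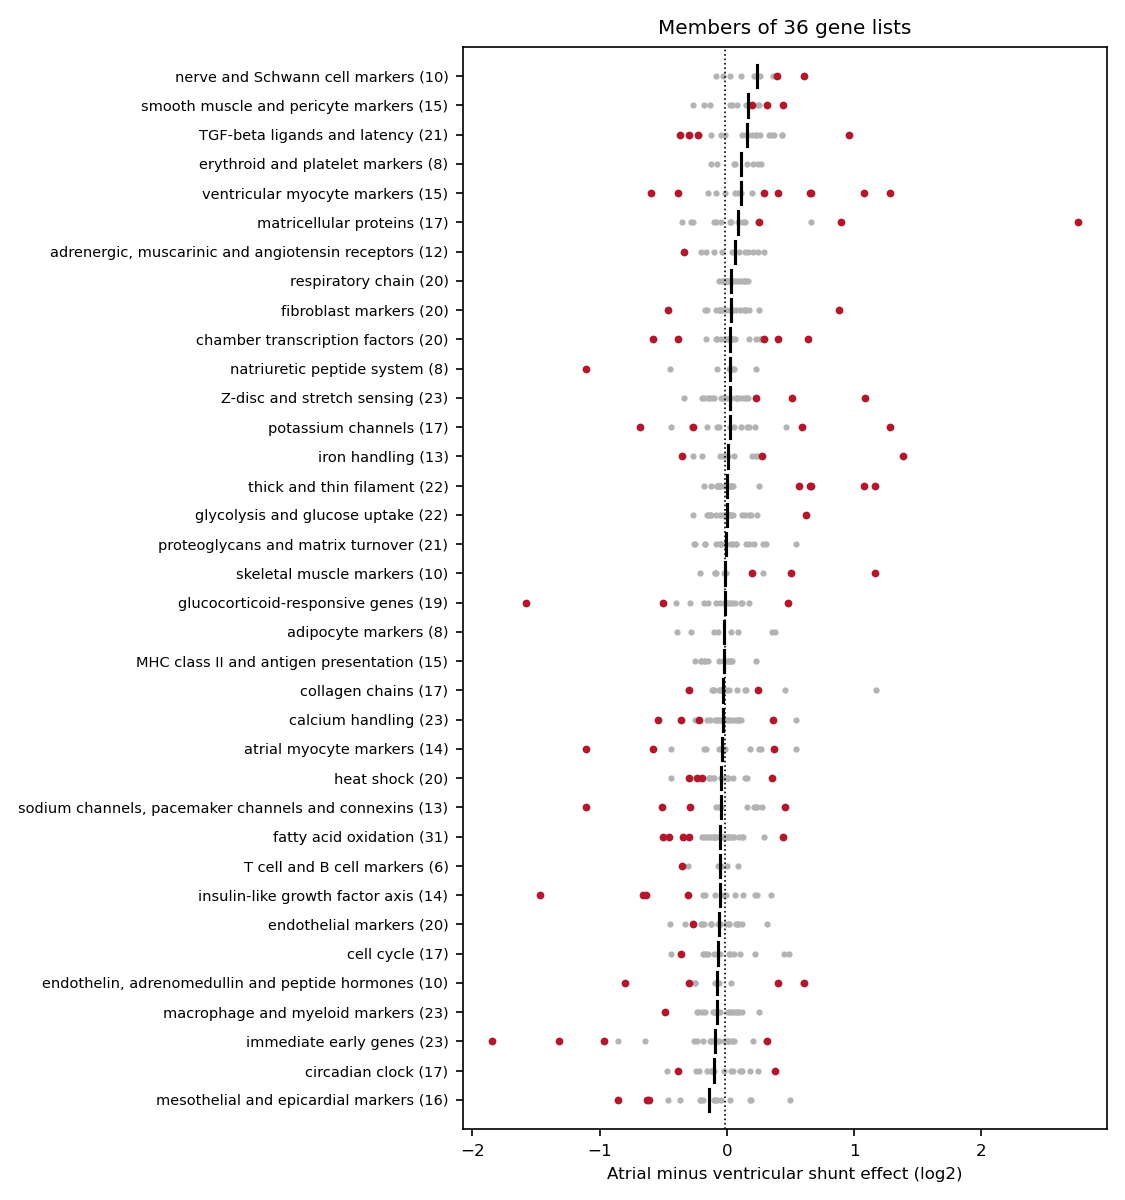
Atrial minus ventricular difference of the shunt effect (x axis, log2) for each measured member of 36 gene lists, with the number measured in parentheses; red points have an unadjusted p under 0.05, black bars are list medians and the dotted line is the median over all genes. List medians lie between -0.14 and 0.24, beside -0.01 over all genes, while single members such as Thbs4 at 2.76 lie far outside.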

How the data were processed

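Expression was measured on 12 one-colour Affymetrix arrays. The deposited values are log2 RMA values, per the submitters' processing notes; the version and the arrays normalized together are not given in the sources used here. Their number, 3 per group, limits precision. Probe sets with a mean below the 40th percentile (4.01) were dropped and the others tested with limma 3.58.1 (lmFit and eBayes, R 4.3.3), 1 mean per group, 8 residual degrees of freedom, two-sided, Benjamini-Hochberg adjusted over 18625 probe sets. A gene was represented by its brightest tested probe set; symbols came from the platform annotation, updated by Entrez identifier, and probe sets with several or no symbols were not named. P-values measure the spread between pools. The genes and lists were chosen with earlier results of these data known. Named were the 10 genes of smallest p on each side of 0, the 5 of smallest p that were opposite or near background, up to 3 per list, and 12 fixed genes. The fit was tested on simulated data. Promoter sequences are RefSeq's; 90 of 122 named genes matched. Alternatives were the filter, normalization, array weights, prior, replicate block, hexokinase covariate, probe set rule, thresholds and leaving out each array.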

Additional observations from a re-analysis of the deposited data

How the results depend on the processing

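The count of probe sets with a chamber difference stayed 0 after cyclic loess or further quantile normalization, without a filter, with the filter at the 60th percentile, for a fold of at least 1.5 and with the replicate block. It was 1 (Gpr15lg) with a trended and robust prior, with the hexokinase difference as covariate, with 1 probe set per gene and at an adjusted p under 0.1, and 2 (Gpr15lg and Klhl40) when probe sets of a gene were averaged. Array weights gave 11, with 7 genes sorted as atrium alone, 1 as ventricle alone, 2 as opposite and 1 as near background; the settings that gave 1 probe set put Gpr15lg under atrium alone (1) and near background (1). Leaving out 1 array gave 0 to 19 probe sets, with 0 to 13 genes as atrium alone, 0 to 1 as ventricle alone, 0 to 2 as both, 0 to 5 as opposite and 0 to 2 as near background. The highest of each came without atrial shunt 3, and the cause was not tested. Same-numbered atrial and ventricular pools of an operation had residual correlations of -0.24 to 0.44 (n = 6, median 0.24), 5 above 0 and 4 above 0.1. The 12 other-numbered pairs ran from -0.62 to 0.45 (median -0.14). Residuals of the 3 arrays of a group sum to 0, so these medians are not independent of each other. The labels leave the pairing unknown, and since not every pair passed 0.1 the numbers were not used as pairs; with the replicate block within an operation the count stayed 0 (smallest adjusted p 0.0503), and over all groups also 0 (0.145). Estimates near 0 changed sign: Myh6 to -0.00975 (quantile), Col1a1 to 0.0632 and Col3a1 to 0.0390 (array weights), and Slc11a2 to -0.0361, Myh1 to -0.00483 and Zap70 to 0.0242 (averaged probe sets). Leaving out 1 array gave -0.149 to 0.105 for Col1a1, -0.0723 to 0.0697 for Col3a1 and -0.165 to 0.0288 for Zap70. No other named estimate changed sign in these fits.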

Other observations

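Clock and stress genes were not described above. Of 17 circadian clock genes, 2 had a difference at an unadjusted p under 0.05 (11.8%, against 6.79% of all genes). Npas2, an activator of the clock, fell in the atrium from 5.97, 5.78 and 6.02 to 5.35, 5.27 and 5.41 (limma adjusted p = 0.0125) beside a ventricular estimate of -0.19, a difference of -0.38. Its atrial call was lost without atrial shunt 2 or atrial sham 3 (limma adjusted p up to 0.0658). Cry1, a repressor of the clock, had overlapping atrial values and ventricular values of 6.34, 6.42 and 6.37 in sham and 6.0, 5.98 and 6.05 in shunt, a difference of 0.37. Of 20 heat shock genes 4 did so, 1 above and 3 below 0. Hspb6, a small heat shock protein of muscle, had 12.04, 12.08 and 11.98 in atrial sham and 11.82, 11.72 and 11.82 in atrial shunt and overlapped in the ventricle, a difference of -0.29 (95% interval -0.47 to -0.12, adjusted p = 0.46).

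The following genes were chosen after their values were seen. Slco2a1, a prostaglandin transporter, had opposite estimates of -0.20 and 0.43, and Ptn, the growth factor pleiotrophin, of -0.49 and 0.40. Cish, a feedback inhibitor of cytokine signalling, had 0.27 and -0.44. C2cd4b was near background in the atrium, with estimates of 0.15 there and -0.83 in the ventricle. Tested probe sets with several symbols or none numbered 4068, of which 270 (6.64%) had a difference at an unadjusted p under 0.05 and 0 passed the adjusted threshold.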
